A study of Mus musculus with 9 samples.

Results

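The genes described here are 43 genes of mitosis and cytokinesis, measured by RNA-Seq in the ventricles of mice at postnatal day 7 (P7). They were chosen by name from the known machinery of the G2 phase and of cell division, with earlier results of these data known. They comprise 34 genes that act in mitosis, from the mitotic kinases to the kinetochore and the spindle, and 9 genes of cytokinesis. The table holds 38293 identifiers, of which 15318 passed the filter on low counts, and all 43 genes were among these, with between 174 and 9653 counts in every library. The question was whether these genes differed between control hearts and hearts in which Arid1a, which encodes a DNA-binding part of a SWI/SNF chromatin remodeler, was deleted in cardiomyocytes, and whether the cytokinesis genes followed the mitotic ones.

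The 5 control libraries came from Arid1a f/f pups, which have floxed alleles but no Cre, and the 4 cKO libraries came from aMHC-Cre;Arid1a f/f littermates. Both groups are homozygous for the floxed allele, and the cKO group differs by the Cre transgene as well as by the deletion it causes. Cre was driven by the αMHC promoter, which is active in cardiomyocytes, whereas RNA was taken from whole ventricles that also hold fibroblasts, endothelium, blood and other cells. In such RNA a difference in the number of cells of a type cannot be told apart from a difference in the RNA per cell, so the values below are levels in the tissue and not in cardiomyocytes.

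Entry into mitosis is driven by the kinase Cdk1 bound to a cyclin. Chromosomes then attach to the spindle through kinetochores, the spindle checkpoint holds the cell until every chromosome is attached, and the anaphase-promoting complex (APC/C) destroys securin and the cyclins to let the chromosomes part. The central spindle and a contractile ring then divide the cytoplasm in cytokinesis. Mouse cardiomyocytes largely leave the cell cycle soon after birth, and in their last round many complete mitosis without cytokinesis and become binucleate. Most of these genes are transcribed periodically and peak in G2 and mitosis. Their promoters are known for a pair of elements: the cell cycle genes homology region (CHR), read by the DREAM and MuvB complexes, and CCAAT boxes, read by the factor NF-Y.

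The promoters of 9 genes are shown, so that the elements can be seen at mitotic and cytokinesis genes side by side, with Cit as a gene whose window holds neither. They were read from RefSeq on GRCm38.p6, 5′ to 3′ along the gene, from 120 bases before to 30 after the annotated start. Capitals mark CHR matches (TTTGAA or TTCGAA, both strands, so that the former can appear as TTCAAA) and CCAAT matches (both strands, so that they can appear as ATTGG). In the stretches printed no CHR match overlaps a CCAAT match, and over the full windows of the 36 genes that have one 1 pair does, in Cdca8. The windows are chr10:69352883-69353032 on the minus strand for the mitotic kinase Cdk1, chr9:70421525-70421674 on the minus strand for cyclin B2 (Ccnb2), chr4:118437314-118437463 on the minus strand for the APC/C activator Cdc20, chr5:30666766-30666915 on the plus strand for the centromeric histone gene Cenpa and chr19:37376262-37376411 on the plus strand for the spindle motor Kif11. For the cytokinesis genes they are chr15:99651627-99651776 on the minus strand for Racgap1, chr9:61946770-61946919 on the minus strand for Kif23, chrX:100625945-100626094 on the plus strand for Kif4 and chr5:115845536-115845685 on the plus strand for Cit. The Kif4 and Cit stretches lie inside the genes as annotated in GENCODE M21 (from 100625737 and 115845278), so starts further upstream were not examined.
Cdk1: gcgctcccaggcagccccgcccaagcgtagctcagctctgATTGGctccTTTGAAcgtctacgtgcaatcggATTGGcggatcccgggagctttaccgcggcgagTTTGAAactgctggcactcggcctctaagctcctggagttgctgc
Ccnb2: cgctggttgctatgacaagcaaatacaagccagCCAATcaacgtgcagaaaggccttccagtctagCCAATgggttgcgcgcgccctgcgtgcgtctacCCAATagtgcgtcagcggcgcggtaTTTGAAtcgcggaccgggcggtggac
Cdc20: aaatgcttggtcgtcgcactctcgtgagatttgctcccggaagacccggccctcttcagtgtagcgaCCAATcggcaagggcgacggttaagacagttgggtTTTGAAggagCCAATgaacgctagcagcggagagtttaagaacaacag
Cenpa: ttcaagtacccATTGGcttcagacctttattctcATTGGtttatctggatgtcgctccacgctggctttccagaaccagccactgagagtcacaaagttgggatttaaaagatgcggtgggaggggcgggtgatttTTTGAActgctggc
Kif11: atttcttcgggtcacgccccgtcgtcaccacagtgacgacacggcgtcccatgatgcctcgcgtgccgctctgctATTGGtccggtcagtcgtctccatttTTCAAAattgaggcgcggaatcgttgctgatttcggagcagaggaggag
Racgap1: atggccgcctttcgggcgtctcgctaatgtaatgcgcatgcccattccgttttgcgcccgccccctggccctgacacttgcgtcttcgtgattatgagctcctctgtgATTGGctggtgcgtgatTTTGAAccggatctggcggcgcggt
Kif23: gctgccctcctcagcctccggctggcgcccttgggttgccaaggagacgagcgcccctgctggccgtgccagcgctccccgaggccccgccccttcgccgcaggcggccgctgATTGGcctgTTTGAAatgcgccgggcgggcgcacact
Kif4: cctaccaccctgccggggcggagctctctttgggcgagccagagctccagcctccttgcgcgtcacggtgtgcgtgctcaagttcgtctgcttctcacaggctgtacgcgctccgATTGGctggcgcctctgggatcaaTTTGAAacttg
Cit: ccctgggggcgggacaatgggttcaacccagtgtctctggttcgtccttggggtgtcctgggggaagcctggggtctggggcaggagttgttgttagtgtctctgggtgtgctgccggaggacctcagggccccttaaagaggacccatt

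Over the full RefSeq windows, from 250 bases before to 50 after a start, 36 of the 43 genes had an entry, with 39 windows between them. A CHR match lay in 76.9% of these 39 windows, against 19.2% of all 32841 windows of the same length in the table. A CCAAT match lay in 71.8% of them, against 37.4% of all windows, and both motifs lay in 66.7%, against 7.52%. The cytokinesis genes carried a CHR match in 9 of 10 windows (90%) and the mitotic genes in 21 of 29 (72.4%). Of the 30 windows with a CHR match, 27 had one that began between 50 bases before and 44 bases after the start. Neither motif was found in the windows of Birc5, Cit, Mad2l1, Nuf2, Nusap1, Plk4 and Pttg1. The windows of Cit and Pttg1, like those of Cdca8, Kif2c and Kif4, lie inside the genes as annotated in GENCODE M21. Starts further upstream were not examined for these genes. A match is a run of letters and was not tested as a bound site.

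The libraries held 31011055 to 40073801 counts. Arid1a was lower in every cKO library than in every control, at 139.8 ± 8.84 CPM (counts scaled to the library total, mean ± SD, n = 5) in controls and 106.4 ± 5.44 CPM (n = 4) in cKO, and the log2 fold change was -0.39 ± 0.06 (± SE here and below, adjusted p = 0.00132). The labels number the libraries without naming animals, so p-values measure the spread between libraries, part of which may be technical. The libraries fell into 2 sets that the labels do not name. Control libraries 1 and 2 and cKO libraries 1, 2 and 3 had under 1 CPM of the ribosomal protein gene copy Rps3a3, and control libraries 3, 4 and 5 and cKO library 4 had 99.7 to 112 CPM. This set and the genotype overlap only in part, so the main counts are also given with the set taken into account. Xist, which separates the sexes, was high in 2 control and 2 cKO libraries.

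Mitosis and cytokinesis genes were, as a body, modestly higher in cKO ventricles. The log2 fold change (cKO minus control) was above 0 for 42 of the 43 genes, where 51.5% of all genes tested lay above 0. Its median over the 43 genes was 0.35, against 0.01 for all genes tested, and 0.23 without cKO library 4. The 43 genes moved together between libraries (median within-group correlation with the others 0.927), so counts over them are not 43 separate observations. Few single genes passed the test. At an adjusted p under 0.05, Cdk1, Plk1, Bub1b, Mad2l1, Cenpa, Cenpe and Anln were higher, 7 of 43, and none was lower, where 8.25% of all genes passed as higher and 8.03% as lower. With a fold change over 1.5 as well, the count was 3 (Plk1, Cenpa and Cenpe), against a background of 4.01% of all genes, and it was 0 without cKO library 4, 6 without cKO library 1, 1 without control library 5 and 1 with the replicate number as a block. All 4 cKO libraries lay above all 5 controls for 3 genes (Bub1b, Cenpa and Cenpe), where 8.16% of all genes showed that pattern. The direction was thus shared by nearly all 43 genes, while the count of non-overlapping genes (3 of 43) was near the background. At an unadjusted p under 0.05, 28 of the 43 genes were higher and 0 were lower, where 15.2% of all genes were higher and 14.5% lower.

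The libraries differed widely within the cKO group. Summed over the 43 genes, the level was 1586, 1380, 1695, 1851 and 1554 CPM in control libraries 1 to 5 and 1654, 2195, 1815 and 2525 CPM in cKO libraries 1 to 4, so that cKO libraries 2 and 4 stood above every control and cKO libraries 1 and 3 lay inside the control range. The mean was 1613 ± 174 CPM (SD, n = 5) in controls and 2047 ± 391 CPM (SD, n = 4) in cKO. cKO library 4 held the highest value of 35 of the 43 genes and control library 2 the lowest of 34. Counted gene by gene, cKO library 4 exceeded every control for 42 genes, cKO library 2 for 36, cKO library 3 for 14 and cKO library 1 for 3. The 43 genes were thus high together in 2 cKO libraries and near the control range in the other two, and the spread within the cKO group was wide beside the difference between the groups.

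**Figure D1:**
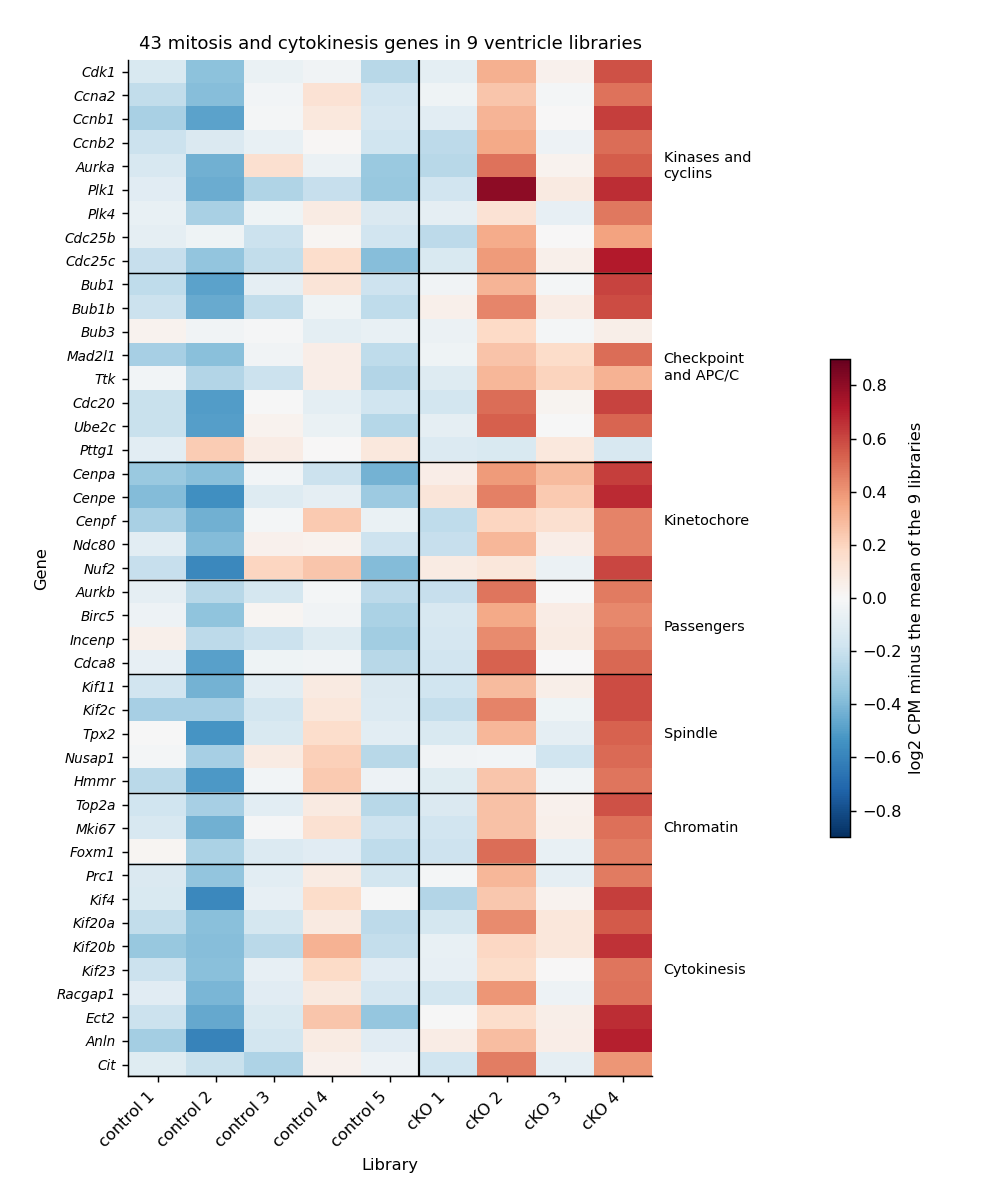
Level of each of the 43 genes (rows, grouped by role) in the 5 control and 4 cKO libraries (columns), coloured by the deviation of log2 CPM from that gene's average in all 9 libraries. cKO library 4 is red for nearly every gene and control library 2 blue for most, and Pttg1 and Bub3 do not share the pattern.

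The count of genes that passed depended on how this spread was treated. In a fit that includes the library set beside genotype, 31 of the 43 genes passed as higher, where 10.3% of all genes did, and the 31 included the 7 above and 8 of the 9 cytokinesis genes. Without cKO library 1, 27 genes passed, with 8.73% of all genes passing as higher. Without cKO library 4, 3 genes passed (Bub1b, Cenpa and Cenpe), with 6.15% of all genes passing as higher, although 41 of the 43 fold changes stayed above 0. With DESeq2 15 genes passed, with 10.1% of all genes passing as higher, with sex as a term 4 (7.13% of all genes), and with the replicate number as a block 6 (5.71% of all genes). In the 5 libraries low in Rps3a3 alone, Cenpa, Cenpe and Anln passed, where 2.57% of all genes passed as higher. Within this low set (2 controls, 3 cKO) the median log2 difference of the 43 genes was 0.36, and within the high set, which has 1 cKO library (number 4) against 3 controls, it was 0.61.

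Mitotic kinases, cyclins and phosphatases were all above 0, with a median log2 fold change of 0.39 over 9 genes, and 2 of them passed the test. Ccna2, the cyclin of S phase and early mitosis, had the highest level per kilobase of exon among them. It measured 81.03, 72.5, 93.2, 103 and 84.04 CPM in control libraries 1 to 5 and 92.01, 112, 93.5 and 133 CPM in cKO libraries 1 to 4. Only cKO libraries 2 and 4 lay above every control, and the log2 fold change of 0.31 ± 0.12 (adjusted p = 0.119) did not pass, whereas Ccna2 passed in the fit that includes the library set (0.42, adjusted p = 0.00425). Plk1 (ENSMUSG00000030867, chromosome 7 from 122159439 to 122169873), the kinase that drives centrosome maturation and mitotic entry, had the largest log2 fold change of the 43 genes in this fit, close to that of Cenpe. With the library set as a term the order was the other way, at 0.71 for Plk1 and 0.78 for Cenpe. The levels of Plk1 were 15.3, 12.05, 13.6, 14.2 and 12.97 CPM in control libraries 1 to 5 and 14.6, 28.7, 17.4 and 26.05 CPM in cKO libraries 1 to 4. cKO library 1 fell among the controls while cKO libraries 2 and 4 stood far above them, and the log2 fold change was 0.67 ± 0.18 (adjusted p = 0.0249). It passed in 12 of the 19 alternative fits, and without cKO library 2 the value was 0.51 (adjusted p = 0.0711).

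Cdk1 (ENSMUSG00000019942, chromosome 10 from 69335146 to 69352938), which was outside the naming rule and is given because it passed, was the only other gene of this group to do so. It measured 51.4, 43.8, 54.3, 55.4 and 47.6 CPM in control libraries 1 to 5 and 53.3, 70.7, 58.02 and 83.98 CPM in cKO libraries 1 to 4, so that 3 cKO libraries exceeded every control, with a log2 fold change of 0.40 ± 0.12 (adjusted p = 0.0480). It passed in 8 of the 19 alternative fits and in 2 of the 9 that leave out 1 library, and the value was 0.26 (adjusted p = 0.137) without cKO library 4. The B-type cyclins that activate Cdk1, Ccnb1 and Ccnb2, had log2 fold changes of 0.39 ± 0.15 (adjusted p = 0.109) and 0.28 ± 0.13 (adjusted p = 0.172). Cdc25b and Cdc25c, the phosphatases that remove the inhibitory phosphates from Cdk1, gave 0.23 ± 0.12 (adjusted p = 0.211) and 0.48 ± 0.18 (adjusted p = 0.0899). The centrosomal kinases Aurka and Plk4 gave 0.39 ± 0.17 (adjusted p = 0.144) and 0.22 ± 0.12 (adjusted p = 0.248). Of these 6 genes, Ccnb1, Cdc25c and Plk4 passed in the fit that includes the library set, at adjusted p = 0.00267, 0.0237 and 0.0434. In that fit 10.3% of all genes passed as higher.

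Spindle checkpoint and APC/C genes held a gene higher in every cKO library and the only gene below 0. Their median log2 fold change was 0.40 over 8 genes, with 7 above 0 and 2 that passed. Bub1b (ENSMUSG00000040084, chromosome 2 from 118598211 to 118641591) encodes BubR1, the checkpoint kinase-like protein that inhibits the APC/C. Its levels were 33.8, 28.2, 33.2, 37.6 and 33.05 CPM in control libraries 1 to 5 and 39.8, 52.4, 40.6 and 58.1 CPM in cKO libraries 1 to 4. All 4 cKO libraries exceeded the highest control, and the log2 fold change was 0.53 ± 0.12 (adjusted p = 0.0105). Mad2l1 (ENSMUSG00000029910, chromosome 6 from 66535390 to 66547220), the checkpoint protein that binds Cdc20 and also a gene outside the naming rule given because it passed, measured 24.9, 23.6, 30.03, 31.9 and 26.1 CPM in control libraries 1 to 5 and 29.9, 36.5, 34.3 and 43.4 CPM in cKO libraries 1 to 4. Its cKO libraries 2, 3 and 4 exceeded every control, with a log2 fold change of 0.40 ± 0.12 (adjusted p = 0.0354), and it passed in 11 of the 19 alternative fits.

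Pttg1 encodes securin, the inhibitor of separase that the APC/C destroys at anaphase, and had the highest level per kilobase of all 43 genes in controls, at 22.1 ± 1.84 CPM per kb (SD, n = 5). It measured 39.4, 49.4, 44.1, 42.4 and 45.2 CPM in control libraries 1 to 5 and 38.8, 38.5, 45.1 and 38.3 CPM in cKO libraries 1 to 4. Control library 2, the lowest library for most of the 43 genes, was the highest for Pttg1, and 3 of the 4 cKO libraries lay below every control. The log2 fold change of -0.14 ± 0.08 (adjusted p = 0.289) did not pass. Bub3, a checkpoint adaptor, lay between 51.7 and 61.98 CPM in all 9 libraries, with 0.08 ± 0.06 (adjusted p = 0.472). Bub1 and Ttk, the checkpoint kinases, gave 0.40 ± 0.15 (adjusted p = 0.0864) and 0.32 ± 0.11 (adjusted p = 0.0816). Both passed by DESeq2, and in the fit that includes the library set Bub1 passed (adjusted p = 0.00408) and Ttk did not (adjusted p = 0.0632). Cdc20 and Ube2c, the activator and the ubiquitin-conjugating enzyme of the APC/C, gave 0.47 ± 0.16 (adjusted p = 0.0660) and 0.46 ± 0.15 (adjusted p = 0.0577), and both passed by DESeq2 and in the fit that includes the library set, at adjusted p = 0.011 and 0.0145 in the latter.

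Among 5 centromere and kinetochore genes, Cenpa and Cenpe rose and were higher in every cKO library than in any control, and the other 3 did not pass. Cenpa (ENSMUSG00000029177, chromosome 5 from 30666777 to 30674830), the histone H3 variant that marks centromeres, measured 58.4, 56.9, 72.5, 64.5 and 54.9 CPM in control libraries 1 to 5 and 77.02, 96.2, 89.9 and 113 CPM in cKO libraries 1 to 4. The lowest cKO library stood above the highest control, with a log2 fold change of 0.62 ± 0.11 (adjusted p = 0.00285). Cenpe (ENSMUSG00000045328, chromosome 3 from 135212537 to 135273611), the kinesin that carries chromosomes to the spindle equator, measured 21.97, 19.7, 26.6, 27.2 and 22.9 CPM in control libraries 1 to 5 and 31.04, 39.5, 33.8 and 45.8 CPM in cKO libraries 1 to 4. Again the groups did not overlap, and the log2 fold change was 0.67 ± 0.12 (adjusted p = 0.00342). Cenpa and Cenpe passed under all 19 alternative fits and Bub1b under 18 of them, the exception being the low library set alone (adjusted p = 0.107). Cenpf, Ndc80 and Nuf2, of the outer kinetochore, gave 0.25 ± 0.15, 0.29 ± 0.13 and 0.32 ± 0.19, with adjusted p of 0.283, 0.177 and 0.291. All 3 passed in the fit that includes the library set, at adjusted p = 0.0142, 0.0427 and 0.0281, where 10.3% of all genes passed as higher.

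The chromosomal passenger complex corrects faulty attachments in mitosis and then moves to the central spindle, and its 4 genes had like values. Their log2 fold changes lay between 0.33 and 0.42 and 0 of 4 passed by edgeR, while all 4 had an unadjusted p under 0.05 and Incenp and Cdca8 passed by DESeq2. Of all genes 15.2% were higher at that unadjusted p and 10.1% passed as higher by DESeq2. In the edgeR fit that includes the library set, Birc5 (adjusted p = 0.0363) and Cdca8 (adjusted p = 0.039) passed, where 10.3% of all genes passed as higher. Birc5, which encodes survivin, had the highest level per kilobase of the 4 and measured 33.2, 26.7, 34.7, 33.5 and 28.2 CPM in control libraries 1 to 5 and 31.1, 43.5, 35.98 and 46.2 CPM in cKO libraries 1 to 4. Incenp, the scaffold, measured 36.8, 30.3, 31.1, 32.9 and 28.6 CPM in control libraries 1 to 5 and 32.1, 47.9, 37.5 and 49.03 CPM in cKO libraries 1 to 4. Cdca8, which encodes borealin, measured 25.4, 19.03, 25.98, 26.1 and 22.4 CPM in control libraries 1 to 5 and 23.6, 38.5, 26.7 and 38.1 CPM in cKO libraries 1 to 4. In each, cKO libraries 2 and 4 stood well above the controls, cKO library 3 just above them and cKO library 1 among them. The log2 fold changes were 0.33 ± 0.12 (adjusted p = 0.0899) for Birc5, 0.38 ± 0.12 (adjusted p = 0.0529) for Incenp and 0.42 ± 0.15 (adjusted p = 0.0913) for Cdca8, beside 0.36 ± 0.14 (adjusted p = 0.0963) for Aurkb, the kinase of the complex.

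Among the spindle genes the median was 0.28 on the log2 scale over 5 genes, and none passed by edgeR or by DESeq2. At an unadjusted p under 0.05, 2 of 5 were higher, against 15.2% of all genes. In the fit that includes the library set, Kif11, Kif2c and Hmmr passed, at adjusted p = 0.00845, 0.0226 and 0.0109, where 10.3% of all genes passed as higher. Tpx2, which activates Aurora A and nucleates microtubules, measured 50.8, 35.2, 46.2, 56.8 and 47.6 CPM in control libraries 1 to 5 and 46.3, 62.5, 48.2 and 73.5 CPM in cKO libraries 1 to 4. Kif11, the motor that pushes the spindle poles apart, measured 43.7, 36.8, 46.3, 52.1 and 45.1 CPM in control libraries 1 to 5 and 43.6, 60.05, 51.1 and 74.1 CPM in cKO libraries 1 to 4. Kif2c, a kinesin that depolymerises microtubules at kinetochores, measured 12.7, 12.7, 13.9, 16.7 and 14.4 CPM in control libraries 1 to 5 and 13.5, 21.3, 15.2 and 23.4 CPM in cKO libraries 1 to 4. For all 3, cKO libraries 2 and 4 were above every control and cKO libraries 1 and 3 were not. Their log2 fold changes were 0.28 ± 0.16 (adjusted p = 0.257), 0.35 ± 0.14 (adjusted p = 0.120) and 0.38 ± 0.16 (adjusted p = 0.125). Nusap1 and Hmmr, which bundle and anchor spindle microtubules, gave 0.14 ± 0.15 (adjusted p = 0.577) and 0.27 ± 0.15 (adjusted p = 0.279), and Nusap1 turned to -0.03 without cKO library 4.

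Mki67, Top2a and Foxm1, of chromatin and transcription, include common markers of dividing cells, and 0 of the 3 passed by edgeR. At an unadjusted p under 0.05, 2 of 3 were higher, against 15.2% of all genes. Top2a passed by DESeq2, where 10.1% of all genes passed as higher. Mki67, which encodes the Ki-67 coat of mitotic chromosomes, measured 150.2, 123, 165, 183 and 145 CPM in control libraries 1 to 5 and 147, 199, 171 and 234 CPM in cKO libraries 1 to 4. Top2a, the topoisomerase that untangles sister chromatids, measured 129, 119, 137, 155 and 124 CPM in control libraries 1 to 5 and 134, 176, 150.2 and 217 CPM in cKO libraries 1 to 4. Foxm1, a transcription factor of G2/M genes, measured 39.5, 32.1, 35.9, 36.4 and 33.4 CPM in control libraries 1 to 5 and 34.4, 55.4, 37.4 and 54.2 CPM in cKO libraries 1 to 4. cKO libraries 2 and 4 exceeded every control for each gene, cKO library 1 exceeded the highest control for none, and the log2 fold changes were 0.29 ± 0.14 (adjusted p = 0.178), 0.35 ± 0.13 (adjusted p = 0.0889) and 0.36 ± 0.14 (adjusted p = 0.110). In the fit that includes the library set Mki67 and Top2a passed, at adjusted p = 0.0201 and 0.0109, and Foxm1 did not, at 0.0882. In that fit 10.3% of all genes passed as higher.

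**Figure D2:**
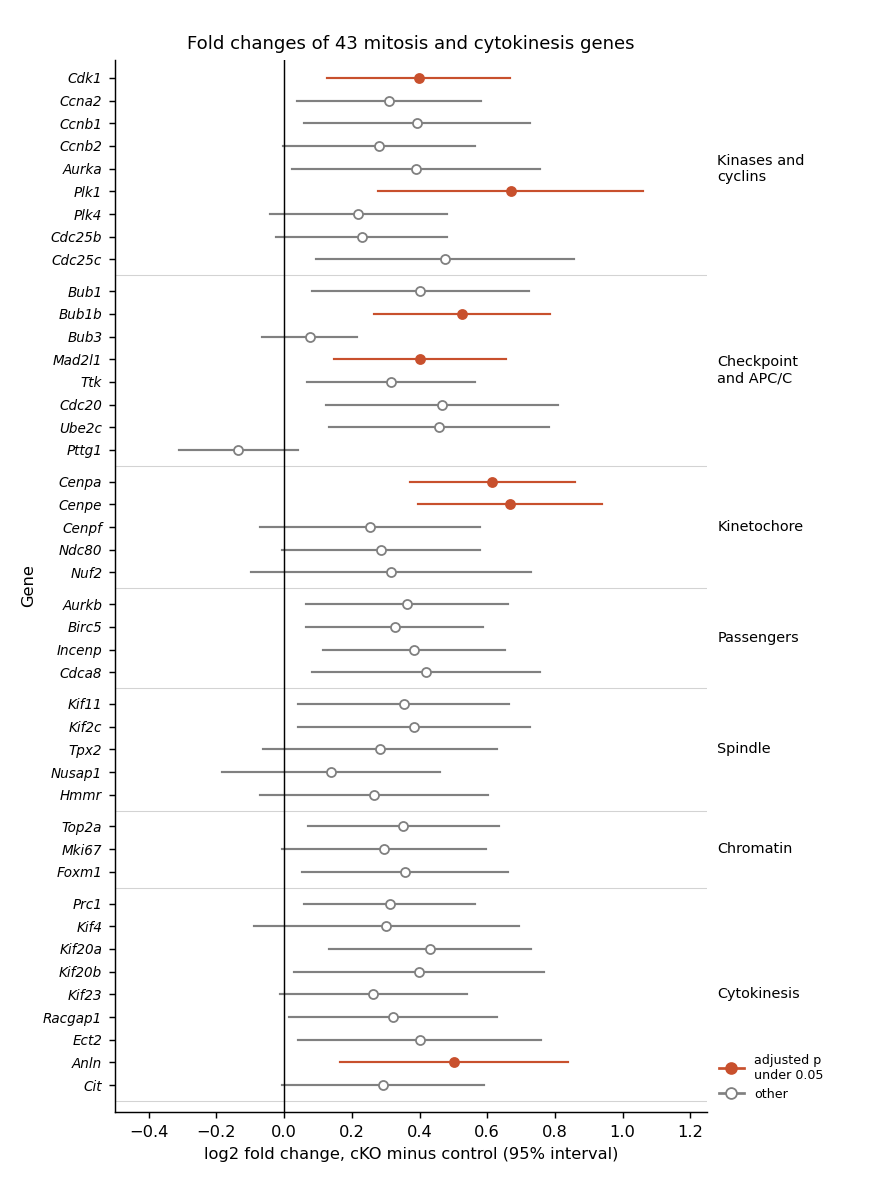
Log2 fold change (cKO minus control, x axis) with its 95% interval for each of the 43 genes (y axis), grouped by role, with filled red points for an adjusted p under 0.05. The points lie right of 0 for 42 genes, and 28 intervals exclude 0, although 7 genes passed after adjustment over all genes.

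Cytokinesis genes were above 0 without exception, with log2 fold changes from 0.26 to 0.50, a median of 0.32 over 9 genes and 1 gene that passed. Without cKO library 4 the median was 0.21. The central spindle is built by Prc1, which bundles antiparallel microtubules, with the kinesins Kif4, Kif20a and Kif20b. Prc1 measured 71.9, 61.7, 73.6, 83.02 and 70.3 CPM in control libraries 1 to 5 and 77.8, 96.8, 74.6 and 109 CPM in cKO libraries 1 to 4. Kif4, which brings Prc1 to the midzone, measured 26.3, 19.4, 27.5, 32.4 and 28.8 CPM in control libraries 1 to 5 and 24.1, 34.2, 29.6 and 44.5 CPM in cKO libraries 1 to 4. In both, cKO libraries 2 and 4 exceeded every control, and for Kif4 cKO library 1 lay below 4 of the 5 controls. Their log2 fold changes of 0.31 ± 0.12 (adjusted p = 0.0919) and 0.30 ± 0.18 (adjusted p = 0.287) did not pass.

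Kif20a, which carries the passenger complex to the midzone, measured 39.6, 35.4, 41.2, 48.6 and 39.2 CPM in control libraries 1 to 5 and 41.2, 61.7, 49.4 and 67.5 CPM in cKO libraries 1 to 4. Its cKO libraries 2, 3 and 4 exceeded every control, and the log2 fold change of 0.43 ± 0.14 (adjusted p = 0.0523) did not pass by edgeR but did by DESeq2. Exons of Kif20a share 1271 bases with Cdc23 on the opposite strand. Kif20b, a related kinesin of late cytokinesis, measured 16.01, 15.5, 17.1, 25.2 and 17.5 CPM in control libraries 1 to 5 and 19.3, 23.1, 21.8 and 31.9 CPM in cKO libraries 1 to 4. Control library 4 lay above 3 of the 4 cKO libraries, and the log2 fold change was 0.40 ± 0.17 (adjusted p = 0.139).

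The centralspindlin complex links the central spindle to the cell cortex, and its subunits are the kinesin Kif23 and the GTPase-activating protein Racgap1. Kif23 measured 29.4, 25.9, 32.02, 38.00 and 31.3 CPM in control libraries 1 to 5 and 31.9, 37.7, 33.7 and 47.04 CPM in cKO libraries 1 to 4. Racgap1 measured 57.9, 46.7, 58.1, 66.2 and 56.00 CPM in control libraries 1 to 5 and 55.4, 81.97, 60.3 and 87.3 CPM in cKO libraries 1 to 4. The former had 1 cKO library above every control and the latter 2, with log2 fold changes of 0.26 ± 0.13 (adjusted p = 0.187) and 0.32 ± 0.14 (adjusted p = 0.149). Ect2, the exchange factor that centralspindlin recruits to activate RhoA, measured 19.98, 16.6, 20.8, 27.2 and 17.98 CPM in control libraries 1 to 5 and 22.8, 25.5, 23.7 and 36.2 CPM in cKO libraries 1 to 4. cKO library 4 alone exceeded every control, control library 4 was also high, and the log2 fold change was 0.40 ± 0.16 (adjusted p = 0.125).

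Anln (ENSMUSG00000036777, chromosome 9 from 22332012 to 22389188) encodes anillin, the scaffold that joins RhoA, actin, myosin and septins in the contractile ring, and was the one cytokinesis gene that passed. It measured 46.8, 38.2, 51.5, 60.96 and 53.9 CPM in control libraries 1 to 5 and 60.6, 70.01, 60.2 and 93.9 CPM in cKO libraries 1 to 4. Control library 4 reached just above cKO libraries 1 and 3, so the groups overlapped by this 1 control, and the log2 fold change was 0.50 ± 0.15 (adjusted p = 0.0467). It passed in 11 of the 19 alternative fits, and the highest adjusted p, 0.115, came without cKO library 4. Cit, the citron kinase of the midbody, had the lowest level per kilobase of the 43 genes, 0.854 ± 0.0735 CPM per kb in controls (SD, n = 5). It measured 14.1, 13.2, 12.5, 15.6 and 14.7 CPM in control libraries 1 to 5 and 13.4, 20.9, 14.4 and 19.997 CPM in cKO libraries 1 to 4, with cKO libraries 2 and 4 apart from the rest and a log2 fold change of 0.29 ± 0.14 (adjusted p = 0.177). Apart from Cit (adjusted p = 0.106), the other 8 cytokinesis genes passed in the fit that includes the library set, at adjusted p between 0.000319 and 0.038. In that fit 10.3% of all genes passed as higher.

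**Figure D3:**
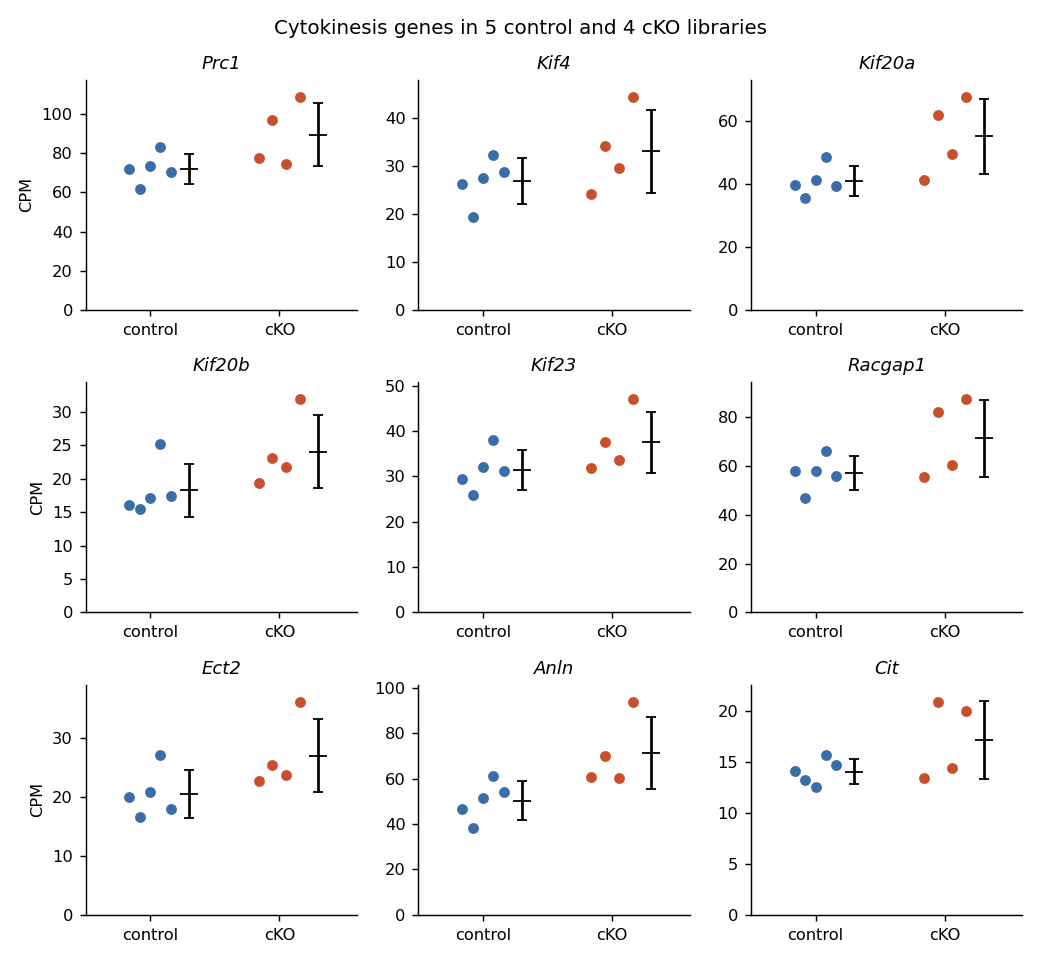
CPM (y axis, from 0) of the 9 cytokinesis genes in each of the 5 control (blue) and 4 cKO (red) libraries, in order of library number, with the mean and SD in black. In each panel cKO libraries 2 and 4 are the upper pair of red points, and at least 1 control reaches the range of the cKO libraries.

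The cytokinesis genes followed the mitotic genes closely. A score was formed in each library as the median, over the genes of a group, of the deviation of log2 CPM from each gene's own average in all 9 libraries. The mitotic score of the 34 genes was -0.16, -0.38, -0.04, 0.02 and -0.23 in control libraries 1 to 5 and -0.13, 0.31, 0.03 and 0.51 in cKO libraries 1 to 4. The cytokinesis score of the 9 genes was -0.19, -0.38, -0.13, 0.09 and -0.15 in controls and -0.08, 0.27, 0.03 and 0.55 in cKO. Control library 2 was the lowest and cKO libraries 2 and 4 the highest on both scores, and control library 4 was within the cKO range on both. The mean was -0.16 ± 0.16 in controls and 0.18 ± 0.29 in cKO for the mitotic score, and -0.15 ± 0.17 and 0.20 ± 0.28 for the cytokinesis score (SD, n = 5 and n = 4), and the libraries of the groups overlapped on both.

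The difference of the 2 scores within a library, cytokinesis minus mitotic, lay between -0.10 and 0.08 in controls and between -0.04 and 0.06 in cKO. Its mean was 0.0021 ± 0.0718 in controls and 0.0154 ± 0.0418 in cKO (SD), so that the shift between groups, 0.0134, was smaller than the pooled SD of 0.0608. Across the 9 libraries Pearson's r between the scores was 0.979 and Spearman's rho 0.95, and r was 0.918 without cKO libraries 4 and 2 and 0.963 for deviations from the group means. These are descriptions over 9 libraries in which both scores share the same depth and scaling. A measure that does not depend on the scaling gave the like: the 9 cytokinesis genes made up 20.5 ± 0.806% of the counts of the 43 genes in controls (19.7% to 21.5%) and 20.8 ± 0.442% in cKO (20.3% to 21.3%). A shift of the cytokinesis genes relative to the mitotic genes was not detectable beyond the spread between these libraries. In the libraries low in Rps3a3 alone the shift was 0.0596, close to the pooled SD, and its sign changed in some fits that leave out 1 library.

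**Figure D4:**
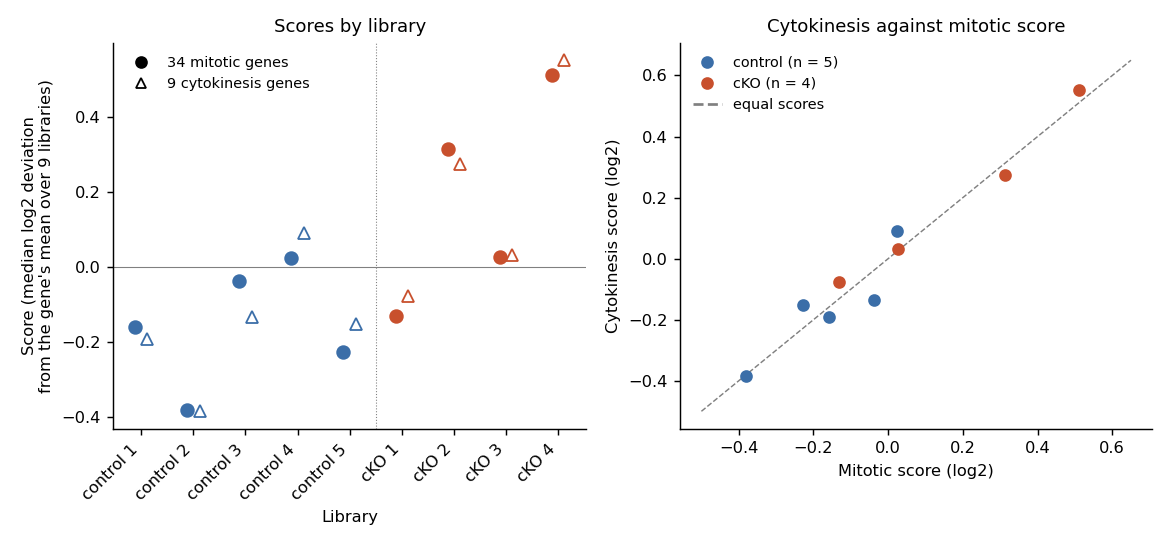
Left, mitotic score (filled circles, 34 genes) and cytokinesis score (open triangles, 9 genes) in each library, both as median log2 deviations from each gene's average. Right, the cytokinesis score against the mitotic score, where the 9 libraries lie within 0.10 of the dashed line of equal scores.

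Most of the 43 genes shared this pattern from library to library. After the group means were removed, the correlation of a gene with the median of the other 42 genes had a median of 0.927, with 25 genes over 0.9 and 37 over 0.8. Mki67 (0.988), Kif11 (0.986), Kif20a (0.978) and Top2a (0.977) were closest to the rest. The 2 genes under 0.5 were Pttg1 (-0.481) and Bub3 (0.406). These correlations describe 9 libraries and carry no test. Relative to the median of the other genes in the same library, Cenpe was higher in cKO by 0.34, Cenpa by 0.28 and Bub1b by 0.19 on the log2 scale, and for these 3 the groups did not overlap on this relative scale either. Plk1 stood 0.29 above the others with overlapping groups, with cKO library 2 the highest, and Pttg1 lay -0.47 and Bub3 -0.26 relative to the others.

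Fold changes of genes with and without the promoter motifs shown above overlapped, and the highest were in genes with a motif. The 23 genes with a CHR and a CCAAT match in a window had a median log2 fold change of 0.35, ranging from 0.08 (Bub3) to 0.67 (Plk1). The 6 genes with 1 of the motifs had a median of 0.40, and the 7 genes with neither had a median of 0.29, from -0.14 (Pttg1) to 0.40 (Mad2l1). No test was made because genes are not replicates, and the windows of Cit and Pttg1 lie inside these genes.

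Other genes of cell division, 117 tested of 118 listed, had uneven values. In all, 6 passed as higher and 2 as lower, beside the 8.25% and 8.03% of all genes given above, and the median log2 fold change was 0.08. At an unadjusted p under 0.05, 38 were higher and 10 lower, where 15.2% and 14.5% of all genes were. In the fit that includes the library set 37 passed as higher, where 10.3% of all genes did, among them 9 of the 18 other kinetochore genes, 12 of the 18 other spindle genes and 4 of the 10 entry and exit controls. Those of kinetochore and spindle came closest to the 43 genes: the median was 0.33 over 18 other kinetochore genes and 0.39 over 18 other spindle genes. Among them Dsn1, of the Mis12 kinetochore complex (0.40 ± 0.11, adjusted p = 0.0254), Cenpm, of the centromere (0.75 ± 0.22, adjusted p = 0.0355), and Tubg1, the gamma-tubulin that nucleates microtubules (0.60 ± 0.14, adjusted p = 0.0125), rose. Zwint, a kinetochore linker, was lower (-0.22 ± 0.06, adjusted p = 0.0163). Of the entry and exit controls, Cks1b, a small Cdk-binding protein (0.48 ± 0.11, adjusted p = 0.0136), and Gtse1 (0.84 ± 0.20, adjusted p = 0.0159) rose, with a median of 0.15 over 10 genes.

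The other 5 lists had medians between -0.03 and 0.11. The median was -0.03 over 16 genes of the APC/C and its regulators, with 0 passing by edgeR (1 higher and 1 lower at an unadjusted p under 0.05). It was 0.08 over 13 contractile ring genes, where Myh10, a non-muscle myosin heavy chain, rose (0.33 ± 0.09, adjusted p = 0.0357). It was 0.02 over 13 abscission genes, where Vps4a, the ATPase that disassembles ESCRT filaments, was lower (-0.25 ± 0.06, adjusted p = 0.0115). Condensin and cohesin had a median of 0.11 over 16 genes and the known regulators of G2/M transcription one of 0.01 over 13 genes, and none passed in either by edgeR. At an unadjusted p under 0.05, 2 condensin and cohesin genes were higher and 2 lower, and 4 of the regulators were higher and 1 lower, beside the 15.2% and 14.5% of all genes given above. In the fit that includes the library set, 5 condensin and cohesin genes, 4 contractile ring genes, 2 regulators and 1 abscission gene passed as higher, where 10.3% of all genes did, and the APC/C list had 0. The 9 cytokinesis genes described above were all above 0, whereas 8 of 13 ring genes and 7 of 13 abscission genes were, and with the library set as a term the medians of the latter lists were 0.13 and 0.02. The difference between these lists was not tested. In their promoters both motifs together were in 0% of contractile ring and of abscission windows, in 5.56% of APC/C windows and in 11.1% of windows of entry and exit controls. The share was 17.6% for windows of the regulators, 22.2% for other kinetochore, 33.3% for condensin and cohesin and 50% for other spindle windows. A relation of these shares to the median fold changes was not tested. The 35 genes of DNA replication had a median of 0.28, with 33 above 0 and 9 passing as higher, Mcm3, Mcm5, Mcm7, Mcm10, Cdc45, Gins1, Pola1, Rrm1 and Rrm2. Of all genes 51.5% were above 0 and 8.25% passed as higher. The groups did not overlap for 7 of the 35, against 8.16% of all genes, and 11 of the 35 passed as higher in the fit that includes the library set, against 10.3%.

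**Figure D5:**
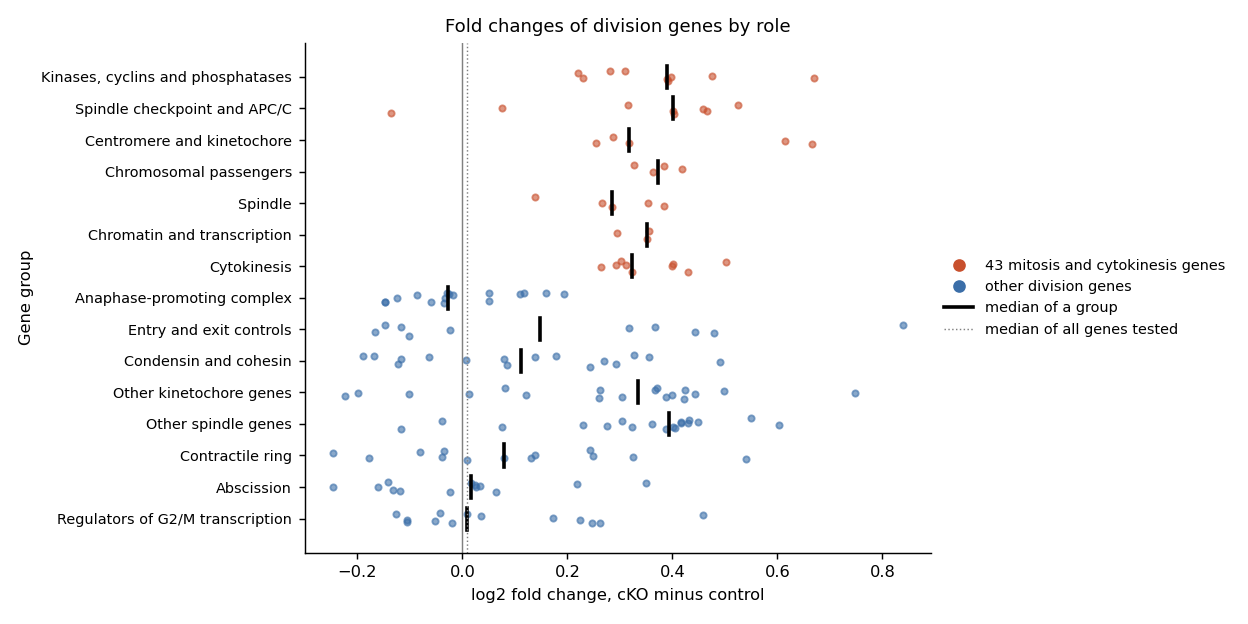
Log2 fold change (cKO minus control) of each gene, by role, for the 43 mitosis and cytokinesis genes (red) and the other division genes (blue). Black bars are medians of a group, the dotted line is the median of all genes tested, and vertical scatter within a row only separates the points.

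Summed markers of cardiomyocytes, of fibroblasts and of the small epithelial and atrial list did not overlap between the groups, and those of the other cell types did. The summed level of 10 cardiomyocyte markers was 60221 to 68170 CPM in controls and 53315 to 57398 CPM in cKO, with 2 of 10 lower (Myl2 and Pln). That of 8 fibroblast markers was 6923 to 8213 CPM against 8559 to 9507 CPM, with 4 of 8 higher (Col1a1, Col1a2, Postn and Tcf21). Of all genes tested 8.25% passed as higher and 8.03% as lower. Sums overlapped for 8 endothelial markers (2239 to 2372 against 2118 to 2284 CPM, Tek lower), 6 mural markers (1738 to 1848 against 1678 to 2040 CPM, 0 passing), 8 macrophage markers (85.5 to 147 against 106 to 203 CPM, 0 passing) and 7 erythroid markers (486 to 936 against 740.1 to 1145 CPM, 0 passing). Of the smaller lists, 6 lymphocyte markers (7.53 to 15.0 against 8.69 to 14.7 CPM) had 0 of 4 tested passing, and 4 epicardial markers (22.0 to 72.0 against 20.4 to 31.6 CPM) had Wt1 lower. The epithelial and atrial list of 3 (32.2 to 76.7 against 84.9 to 124 CPM) had Myl7 higher, whereas Sln, the other gene tested, did not pass. The median log2 fold change of these 2 was -0.02. In no list was a marker at 0 in all libraries. The part of these cells in the levels of the 43 genes was not tested.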

How the data were processed

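Poly(A)-selected, stranded, single-end libraries from P7 ventricles (5 control, 4 cKO) were analysed. The deposited values are raw counts per gene, 1 column per library, to which the authors had applied no normalization. The submitters' processing notes name STAR 2.4.2a, HTSeq 0.6.1 and mm10, and the counting strand and the annotation are not given in the sources used here. Genes that overlap another gene on either strand, among them Ccna2, Prc1, Kif4 and Kif20a, are therefore uncertain, as are those with a named pseudogene copy (Ccnb1, Ccnb2 and Kif4). Symbols came from GENCODE M21 on GRCm38, the assembly of mm10, in which 36345 of the 38293 identifiers were found, with 99.82% of the counts.

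Genes were filtered with a minimum count of 10 (filterByExpr), scaled by TMM and tested with the two-sided quasi-likelihood F test of edgeR 4.0.16 (limma 3.58.1, R 4.3.3), genotype being the only term, with Benjamini-Hochberg adjustment over 15318 genes. A call needed an adjusted p under 0.05 and a fold over 1.5, the thresholds of the study, which used DESeq2 (here 1.42.0, as an alternative). Its text differs on the number of controls, and all labelled controls were used. Errors of log2 fold changes are SE from the F statistic. Levels per kb use the summed exon length of all isoforms. Scores used log2 CPM with a prior count of 2. No 2 libraries of the same group matched within sampling noise. The fit was tested on simulated data.

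The 43 genes and all lists were chosen with earlier results of these data known. Printed in every library were the cytokinesis genes and, in each other role, the genes with the highest level per kb, the smallest p and the largest change. Of other division genes, up to 3 per list with an adjusted p under 0.05 were named. Alternatives covered scaling, filters, the test, the replicate number, library set and sex as terms, scores, list membership and each library left out.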

Additional observations from a re-analysis of the deposited data

Results flagged for a closer look

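Of 94 groups of values, each a gene or score in the controls or the cKO libraries, 2 held a library far from the others by Dixon's criterion, which chance meets in about 1 of 20 groups. Pttg1 stood apart in cKO library 3, at 45.1 CPM, with the gap to the nearest library taking 0.919 of the range of the 4 cKO libraries. Kif20b stood apart in control library 4, at 25.2 CPM, where the gap took 0.757 of the range of the 5 controls. For the interaction of genotype with Xist level (high or low), 0 of the 43 genes passed in edgeR and 0 had an unadjusted p under 0.05. Over all 15318 genes 1 passed and 2.56% had an unadjusted p under 0.05, so this count is near the background and does not show equal effects.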

How the results depend on the processing

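The median log2 fold change of the 43 genes and the medians of the mitotic and cytokinesis genes moved by less than the SD between libraries in the alternatives run. So did the shift of the cytokinesis score against the mitotic one. That shift uses no model term, so adding the library set, sex or replicate number could not move it. Scaling hardly enters it either. It was 0.0596 in the Rps3a3-low libraries, -0.011 to 0.0389 with 1 library left out and -0.0028 without Kif4 and Kif20b. Without cKO library 4, however, the median of the 43 genes was 0.23 instead of 0.35 and that of the cytokinesis genes 0.21 instead of 0.32, the lowest with 1 library left out (highest 0.46 and 0.43, without cKO library 1). Counts of genes moved more. The genes past the adjusted p, 7 as reported, numbered 31 with the library set as a term, 15 with the DESeq2 Wald test, 4 with sex as a term and 3 in the libraries low in Rps3a3. In these fits 10.3%, 10.1%, 7.13% and 2.57% of all genes passed as higher. With 1 library left out, from 3 to 27 of the 43 genes passed, where 5.97% to 8.73% of all genes did as higher. The lowest counts of the 43 genes came without control library 2, control library 5, cKO library 2 or cKO library 4 (3 each), then without control library 3 (4), and the highest came without cKO library 1. The genes also past the fold threshold, 3 as reported, numbered 5 with the library set as a term and 0 to 6 with 1 library left out (0 without cKO library 4, 1 without control library 5, 6 without cKO library 1). With the replicate number as a term (replicate block), 6 genes passed the adjusted p, 5 of them among the 7, and 1 passed the fold threshold. The numbers do not pair the libraries, since deviations of same-numbered libraries correlated at 0.023, 0.036, 0.011 and 0.232. Other division genes past the adjusted p, 8 as reported, numbered 13 with a mean of at least 1 CPM, 4 with the replicate block, 39 with the library set as a term, 1 in the Rps3a3-low libraries, 24 with DESeq2 and 6 to 25 with 1 library left out. Calls over all genes, 1030 as reported, fell to 620 in the Rps3a3-low libraries. Of single genes, Nusap1 turned to -0.0338 without cKO library 4 (up to 0.2196 without cKO library 3), 60 values gained and 35 lost the adjusted p threshold, and 721 kept both direction and side. The cause of these changes was not tested, beyond the fewer libraries in some fits.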
